A study of Mus musculus with 9 samples.

Results

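Brown adipose tissue of mouse embryos (BAT, the fat that makes heat) was compared between E16.5 and E14.5, where E gives the embryonic day, so the stages lie 2 days apart. All 30915 genes of the deposited table entered, of 30915 in the series, and the comparison used 6 of its 9 arrays. The embryos were C57Bl6J mice that were wild type and untreated. Each array held an independent preparation that pooled the BAT of 3 embryos, with 3 arrays at E16.5 and 3 at E14.5. RNA was hybridised to MoGene-2_0-st arrays, which measure transcripts with short probes along the gene. The other 3 arrays, of E15.5, entered only the estimate of the spread. Because whole tissue was measured, fewer cells of a type and less RNA per cell cannot be told apart.

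Brown adipocytes burn fatty acids in their mitochondria, and Ucp1 in the inner membrane lets protons back in so that the energy is released as heat. They arise in the embryo from mesenchymal progenitors that also give rise to skeletal muscle and dermis, and they fill with lipid droplets and mitochondria before birth. Transcription factors such as Pparg, Cebpa, Ebf2 and Prdm16 direct that differentiation, and the coactivator Ppargc1a raises the genes of mitochondria.

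E16.5 replicate 2 stood apart. Its median log2 value was 5.05, against 4.79 and 4.84 on the other E16.5 arrays and 4.82 to 4.85 on the E14.5 arrays. Among 1497 olfactory and vomeronasal receptor genes, which serve smell and pheromone sensing and mark the low end of the signal here, its median was 3.66, against 3.29 on each of the other E16.5 arrays and 3.16 to 3.18 on the E14.5 arrays. Pearson's r across genes was 0.992 to 0.997 within E16.5, 0.9978 to 0.998 within E14.5 and 0.952 to 0.962 between the stages. No detection calls were used, so a gene is called at the low end where its stage mean lay under the level of 95 percent of those receptor genes, 4.50 at E16.5 and 4.27 at E14.5. By that measure 12158 genes were at the low end at both stages, and the changes of such dim genes are uncertain in size. They can be understated, but small rises can also be overstated. The receptor genes themselves had a median log2 change, E16.5 minus E14.5, of 0.22 as deposited and 0.049 after quantile normalization.

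Markers of the named tissue rose, and most of the skeletal muscle, mesenchymal progenitor and mural cell markers fell. All 16 brown adipocyte markers rose, and their summed linear level was 34330 to 37021 on the E16.5 arrays and 6675 to 7701 on the E14.5 arrays. At E14.5 Dio2 and Elovl3 were at the low end, and Ucp1 (mean 4.46), Cox7a1 (4.89) and Adrb3 (5.20) lay not far above it. The tissue is named by the submitters' label, and at that stage the list is read from its brighter markers. Among them were Pparg at a mean of 10.99, Prdm16 at 7.84 and Cox8b at 7.20. Cox8b is typical of muscle as well, and the part of muscle cells in its value was not tested. Of 19 skeletal muscle markers 18 fell and 0 rose, with summed levels of 8323 to 11545 at E16.5 and 21109 to 21888 at E14.5. Of 16 mesenchymal progenitor markers 13 fell and 2 rose (Ly6a and Pi16), with 17031 to 18462 at E16.5 and 30666 to 31827 at E14.5. Of 11 mural and smooth muscle markers 7 fell and 4 rose (Rgs5, Myh11, Cspg4 and Kcnj8), with 5964 to 6399 at E16.5 and 7911 to 8263 at E14.5. The largest change in this list was the rise of Rgs5 (1.72), whereas its falls reached -0.96. Acta2, the brightest of the list at both stages, changed by -0.82 and weighs most in the sums. Leukocyte markers had 9 of 20 lower and 2 higher (5384 to 6312 at E16.5, 7042 to 7484 at E14.5), and neuron and Schwann cell markers had 6 of 15 lower and 0 higher (919 to 1101 at E16.5, 1612 to 1639 at E14.5). Cartilage and bone markers had 6 of 14 lower and 2 higher, and their sum was 603 to 634 at E16.5 and 2367 to 2447 at E14.5, but Matn1, Comp, Sp7, Ibsp, Bglap and Spp1 were at the low end at both stages. Most of that difference lay in Sox9 (125 to 153 at E16.5, 1474 to 1592 at E14.5) and Alpl (148 to 183 at E16.5, 495 to 524 at E14.5), whereas the other 12 summed to 280 to 328 at E16.5 and 360 to 369 at E14.5. Endothelial markers had 4 higher and 3 lower of 14, and their sums overlapped (11939 to 12969 at E16.5, 12527 to 12839 at E14.5). Of 10 epidermis markers 3 rose and 0 fell, with sums of 359 to 425 at E16.5 and 282 to 308 at E14.5, while Krt5, Krt14 and Ivl were at the low end at both stages. Of 10 liver markers 2 rose and 0 fell (177 to 197 at E16.5, 158 to 165 at E14.5), and 7, Alb and Afp included, were at the low end at both stages. Among all genes 22.0% were called higher and 17.4% lower. The shares higher in the liver (20%), endothelial (28.6%) and epidermis (30%) lists were not far from that, nor was the endothelial share lower (21.4%).

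**Figure D1:**
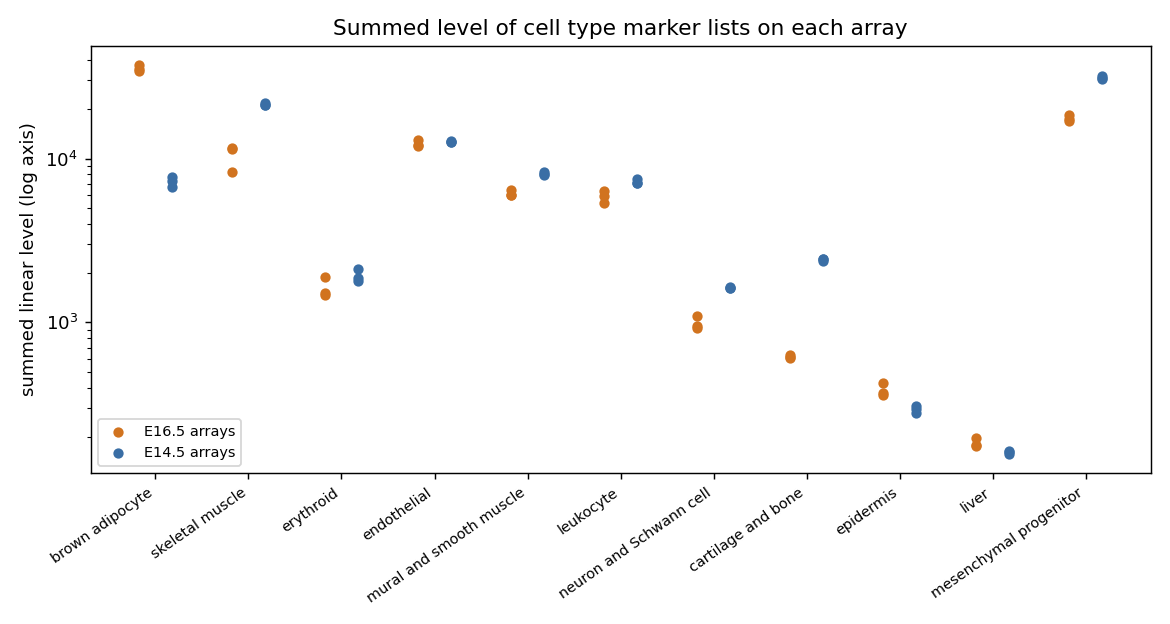
Summed linear level (2 raised to the log2 value, log axis) of 11 cell type marker lists on each E16.5 array (orange) and each E14.5 array (blue). The brown adipocyte sum is 34330 to 37021 at E16.5 and 6675 to 7701 at E14.5, while the muscle, cartilage and progenitor sums are lower at E16.5.

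The 8 largest rises included 5 genes of lipid droplets or the respiratory chain. The steepest rise was that of Cox7a1, the muscle and brown fat form of a cytochrome c oxidase subunit. Its log2 values were 11.74, 11.98 and 11.65 at E16.5, against 4.94, 4.93 and 4.79 at E14.5. That is a 119-fold difference (log2 change 6.90 ± 0.10, limma adjusted p = 2.12e-11; standard error, SE, n = 3 arrays per stage here and below). Cidea and Cidec, which fuse lipid droplets, and Plin1 and Plin4, which coat them, were also among the 8 largest rises. Cidea had 11.60, 11.77 and 11.75 at E16.5, against 5.33, 5.17 and 5.48 at E14.5 (change 6.38 ± 0.11). For Cidec the values were 11.68, 11.80 and 11.73 at E16.5, against 5.54, 5.44 and 5.61 at E14.5 (change 6.21 ± 0.08). Plin1 gave 11.46, 11.50 and 11.51 at E16.5, against 6.11, 5.84 and 6.10 at E14.5 (change 5.47 ± 0.09). In all 3 genes every E16.5 array lay more than 5 log2 units above every E14.5 array. The rest of the 8 were Slc36a2, Adig, Pck1 and Plin4, at changes of 6.03, 5.81, 5.80 and 5.61.

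The falls were smaller in size. The 8 named here leave out gene models and small RNAs, some of which fell further, as Mir377 did at -4.29. Crabp2, which carries retinoic acid to its nuclear receptors, had 5.52, 5.82 and 5.76 at E16.5, against 9.51, 9.78 and 9.82 at E14.5 (change -4.0 ± 0.11, limma adjusted p = 1.64e-09). Hbb-y, an embryonic globin, had 5.63, 6.05 and 5.23 at E16.5, against 9.39, 9.44 and 9.65 at E14.5 (change -3.86 ± 0.17, limma adjusted p = 1.95e-08). Erythroid markers as a list did not move 1 way: 4 of 13 rose and 3 fell, with summed levels of 1478 to 1902 at E16.5 and 1793 to 2110 at E14.5, and the part of blood cells in the fall of Hbb-y was not tested. Egfl6, a secreted matrix protein with EGF repeats, fell by 3.80 on the log2 scale. The others of the 8 were Clstn2 (-3.47), a synaptic membrane protein, Corin (-3.45), the protease that activates atrial natriuretic peptide, Sox9 (-3.44), Mybph (-3.34), a sarcomere protein, and the glycosyltransferase B4galnt4 (-3.25).

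In limma's fit with Benjamini-Hochberg adjustment over all 30915 genes, 12171 (39.4%) passed an adjusted p of 0.05. Of these 6795 (22.0%) rose and 5376 (17.4%) fell. At least 2-fold changes were called for 1681 genes upward (5.44%) and 1550 downward (5.01%). Without E16.5 replicate 2 the fit called 6335 higher and 6720 lower. Through every fit without 1 of the 6 arrays, 4571 rises (14.8%) and 4399 falls (14.2%) kept their call. The 3 values of one stage all lay above the 3 of the other in 15510 genes (50.2%). The median change of all genes was 0.14 on the deposited scale, 0.0068 after quantile normalization and 0.038 without E16.5 replicate 2. Among genes at or above median brightness it was 5e-06. Medians of gene families below are therefore given less that median of all genes and called relative, while changes of single genes are as deposited.

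**Figure D2:**
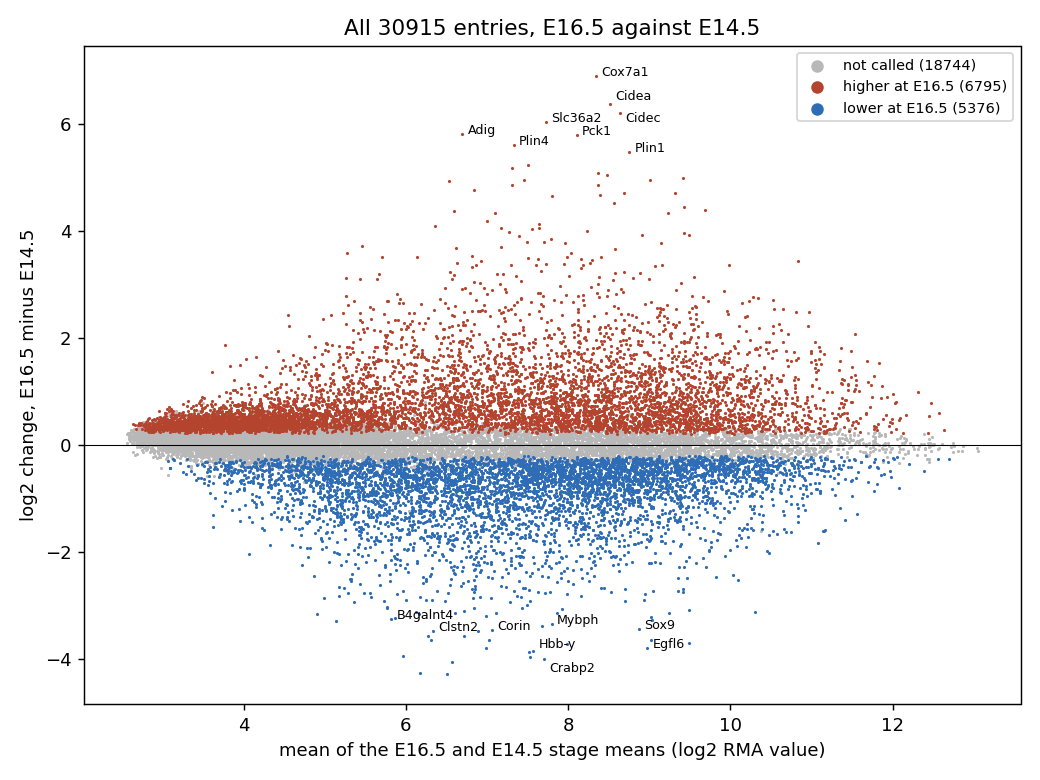
Log2 change, E16.5 minus E14.5 (vertical axis), against the mean log2 value of both stages (horizontal axis) for all 30915 genes, with 6795 called higher (red), 5376 called lower (blue) and 18744 not called (grey). The 8 largest rises and falls with function-bearing names are labelled, from Cox7a1 at 6.90 down to Crabp2 at -4.0.

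Genes were sorted by symbol into 5 classes with 108 families, covering 4911 genes. The 1497 olfactory and vomeronasal receptor genes were kept out of the receptor class. Enzymes moved upward most: of 1666, 589 rose (35.4%) and 425 fell (25.5%). Transporters were balanced, with 185 of 780 higher (23.7%) and 164 lower (21.0%). Transcription factors had 206 of 1080 higher (19.1%) and 291 lower (26.9%). Receptors had 125 of 676 higher (18.5%) and 211 lower (31.2%). Secreted factors had 117 of 710 higher (16.48%) and 211 lower (29.7%). All genes stood at 22.0% higher and 17.4% lower, so the share lower was above that of all genes in each of the 5 classes so defined, and the share higher was above it in enzymes and transporters. With the olfactory and vomeronasal genes counted in, receptors had 367 of 2173 higher (16.9%) and 216 lower (9.94%), below the shares of all genes. Among changes of at least 2-fold, enzymes had 281 higher and 122 lower, and secreted factors 31 higher and 103 lower. Of the members, 308 enzymes, 218 transporters, 160 transcription factors, 194 receptors and 240 secreted factors were at the low end at both stages.

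**Figure D3:**
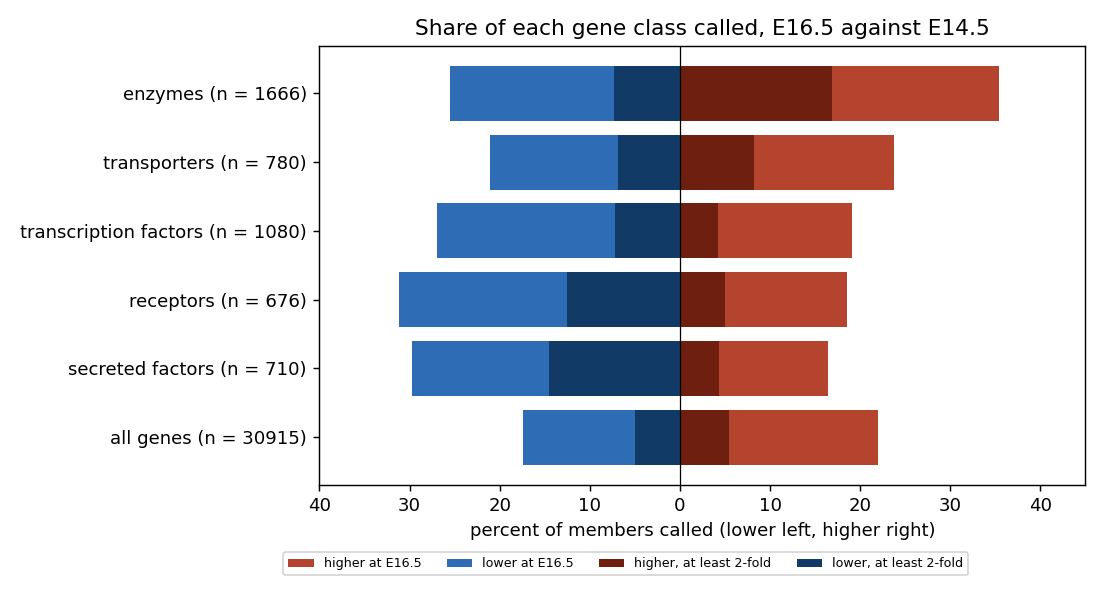
Percent of the members of each class called higher at E16.5 (red, to the right) and lower at E16.5 (blue, to the left), with changes of at least 2-fold in the darker shade and all genes in the lowest bar. Enzymes reach 35.4% higher, and receptors reach 31.2% and secreted factors 29.7% lower, against 22.0% higher and 17.4% lower among all genes.

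Among the transcription factors, the largest rises were those of Ppara, Mlxipl and Cebpb, and the largest falls those of Sox9, Myog and Arnt2. Ppara, the receptor that switches on fatty acid oxidation, had 9.67, 9.71 and 9.75 at E16.5, against 5.71, 6.30 and 5.60 at E14.5. Its E16.5 values lay within 0.1 of each other and more than 3 units above the highest E14.5 value (change 3.84 ± 0.16, limma adjusted p = 1.32e-08). Mlxipl (ChREBP), which responds to glucose and drives lipid synthesis, had 9.07, 9.13 and 9.0 at E16.5, against 6.33, 6.06 and 6.32 at E14.5 (change 2.83 ± 0.12, limma adjusted p = 1.51e-08). Cebpb, an early factor of adipocyte differentiation, had 8.58, 9.03 and 8.74 at E16.5, against 6.11, 5.88 and 6.15 at E14.5 (change 2.74 ± 0.12, limma adjusted p = 2.22e-08). The 3 genes had no overlap between stages, as the choice of the largest rises required. Nr0b1 (a nuclear receptor that represses others) and Esrra, which acts with Ppargc1a on mitochondrial genes, rose by 2.33 and 2.21. Nr0b1 was highest on E16.5 replicate 2, at 6.98, and lay at 6.46 and 6.36 on the other E16.5 arrays, and its change without that array was 2.14.

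Of 49 nuclear receptors, 20 rose and 5 fell, a relative median of 0.10, and the falls numbered 3 without E14.5 replicate 1. Of 50 bZIP factors, 15 rose and 13 fell, with relative median -0.14. In front were Cebpb, Cebpa (1.76 ± 0.11, limma adjusted p = 2.27e-07) and the clock output factor Dbp (1.40). Without E16.5 replicate 2, however, the bZIP falls, at 18, outnumbered the 15 rises. Of 16 Stat and Irf factors, 7 rose and 4 fell. Among those that rose were Stat5a, which mediates growth hormone and prolactin signals and changed by 1.24, and Stat6 at 0.66. Of 39 Zbtb factors, 13 rose and 5 fell, with relative median -0.085. Zbtb16 (Plzf, 2.21) and Zbtb7b (1.66) led, and the Zbtb falls numbered 9 without E16.5 replicate 2 and 8 after quantile normalization. Each of these families was chosen for its high share of rises, so the counts describe it and test nothing.

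Sox9, which directs cartilage formation and is found in early mesenchymal cells, fell most. Its values were 7.26, 6.96 and 7.24 at E16.5, against 10.53, 10.64 and 10.61 at E14.5 (change -3.44 ± 0.11, limma adjusted p = 3.81e-09). Myog and Myod1, which commit cells to skeletal muscle, fell as well. Myog stood at 7.02, 7.05 and 7.23 at E16.5, against 9.77, 9.81 and 9.77 at E14.5 (change -2.68 ± 0.11, limma adjusted p = 1.64e-08). Myod1 stood at 6.01, 5.70 and 6.15 at E16.5, against 8.38, 8.38 and 8.51 at E14.5 (change -2.47 ± 0.12, limma adjusted p = 3.13e-08). Both are themselves among the 19 muscle markers, of which 18 fell over the same interval, and the part of muscle cells in this was not tested. The changes of Arnt2, Six2 and Zfp462, 3 factors of embryonic development, were -2.47, -2.47 and -2.40.

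The next 4 families were chosen for their high share of falls. Of 11 Gli, Glis and Zic factors, 1 rose and 6 fell (relative median -0.79). Gli3 and Gli2, which carry hedgehog signals, and Zic1 changed by -2.33, -1.93 and -1.56. Of 12 Smad, Tcf7 and Lef factors, 0 rose and 8 fell (-0.56). Tcf7l2 and Tcf7l1, which carry Wnt signals, changed by -1.50 and -1.18, and Smad9 ended at the low end at E16.5 after a change of -0.85. Of 19 Ebf, Mef2, Nfi, Tead and Runx factors, 1 rose and 12 fell (-0.59), led by Tead2 of the Hippo pathway (-1.77), Ebf3 (-1.20) and Mef2c (-0.98). Of 10 E2f and Dp factors, 1 rose and 7 fell (-0.51), and without E14.5 replicate 2 the falls numbered 4. E2f3, E2f8 and E2f7, factors of the cell cycle, changed by -1.06, -0.80 and -0.67.

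Of the panel factors known for brown fat fate, Prdm16 had 8.71, 9.08 and 8.90 at E16.5, against 7.92, 7.77 and 7.84 at E14.5 (change 1.05 ± 0.11, limma adjusted p = 1.07e-05). Pparg, the master factor of adipocytes, was already at 10.99 at E14.5 and rose by 0.69 (limma adjusted p = 5.46e-05). Ebf2 had 11.40, 11.51 and 11.40 at E16.5, against 11.23, 11.02 and 11.11 at E14.5, a change of 0.32 ± 0.08, limma adjusted p = 0.0117. Its call was lost after quantile normalization (0.15, limma adjusted p = 0.0942) and without E14.5 replicate 2 (0.27, limma adjusted p = 0.0585). Ppargc1a, a coactivator and no DNA-binding factor, stood at 10.13, 10.22 and 10.19 at E16.5, against 7.14, 6.86 and 6.91 at E14.5 (change 3.21 ± 0.09, limma adjusted p = 1.56e-09). The class had 199 rises and 361 falls without E16.5 replicate 2.

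The largest rises among receptors were those of Klb, Acvr1c and Sctr. Klb, the co-receptor through which Fgf21 acts, had 10.81, 10.99 and 10.94 at E16.5, against 5.87, 5.69 and 5.94 at E14.5 (change 5.08 ± 0.10, limma adjusted p = 1.44e-10). Acvr1c (ALK7), an activin-type receptor of adipocytes, had 9.15, 8.71 and 9.15 at E16.5, against 4.19, 4.13 and 3.89 at E14.5 (change 4.93 ± 0.13, limma adjusted p = 1.01e-09). It was at the low end at E14.5 and lower on E16.5 replicate 2 than on the other E16.5 arrays. Sctr, the secretin receptor, had 9.63, 9.85 and 9.70 at E16.5, against 4.53, 5.22 and 4.88 at E14.5 (change 4.85 ± 0.15, limma adjusted p = 2.96e-09). Hcar1, the lactate receptor, had 10.72, 10.93 and 10.82 at E16.5, against 6.35, 6.06 and 6.49 at E14.5 (change 4.53 ± 0.12, limma adjusted p = 1.37e-09). All 4 were higher on every E16.5 array than on any E14.5 array, as the choice of the largest rises required. Lgr6, a receptor for R-spondins, and Tshr, the thyrotropin receptor, rose by 3.58 and 3.22.

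Of 48 lipid and nucleotide receptors, 17 rose and 15 fell, with relative median 0.027. Behind Hcar1 came Hcar2, the hydroxybutyrate and niacin receptor (2.25, at the low end at E14.5), and S1pr5, a sphingosine phosphate receptor (1.88), while without E16.5 replicate 2 the 16 falls of this family outnumbered its 15 rises. Of 35 amine receptors, 9 rose (25.7%) and 5 fell (14.3%), against 22.0% and 17.4% of all genes. Amine receptor rises numbered 5 without E14.5 replicate 3 and also with dim genes left out. Adrb3, the beta adrenergic receptor through which noradrenaline turns on brown fat, had 6.87, 7.21 and 6.89 at E16.5, against 5.49, 5.12 and 4.99 at E14.5 (change 1.79 ± 0.15, limma adjusted p = 2.53e-06). Adra1d and Adra1a, which respond to the same transmitter, changed by 2.16 and 1.80. Of 30 LDL receptor family and scavenger receptors, 9 rose and 11 fell, with relative median -0.20. Falls thus outnumbered rises although the share of rises was among the 4 highest of the class. The list was drawn wide: Klb and Gpihbp1, the endothelial anchor of lipoprotein lipase (1.51), are neither LDL nor scavenger receptors, whereas Scarb1 (1.05) takes up cholesterol from HDL. Of 45 Toll-like and C-type lectin receptors, 10 rose (22.2%) and 8 fell (17.8%), with relative median -0.053. These shares were near the 22.0% and 17.4% of all genes. The rises of this family numbered 6, against 7 falls, without E14.5 replicate 1. Falls also outnumbered rises without E16.5 replicate 2 (9 rises and 12 falls), without E14.5 replicate 3 (7 and 8) and after median centring (10 and 11). Its leaders were Clec2d (1.81), Clec1a (0.94) and Clec16a (0.75), an endosomal protein rather than a surface lectin, and 2 of 20 leukocyte markers rose while 9 fell, whose part here was not tested.

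The largest fall among receptors was that of Adgrb2, an adhesion G protein-coupled receptor best known from neurons. Its values were 4.33, 4.53 and 4.84 at E16.5, against 7.51, 7.74 and 7.81 at E14.5 (change -3.12 ± 0.13, limma adjusted p = 1.32e-08). Adgrg6, which Schwann cells need to form myelin, changed by -2.70. Several receptors of axon guidance cues fell. Robo1, a receptor for Slit proteins, had 7.26, 6.96 and 7.0 at E16.5, against 9.70, 9.74 and 9.78 at E14.5 (change -2.67 ± 0.11, limma adjusted p = 1.12e-08). Robo2 changed by -2.64 and Dcc, the netrin receptor, by -2.68, to the low end at E16.5. Of 21 plexins, neuropilins, netrin and Robo receptors, 2 rose and 14 fell, with relative median -0.69, and the semaphorin receptors Plxna3 and Plxnb2 changed by -2.11 and -1.55. Of 14 Eph receptors, 0 rose and 9 fell (-0.62). Ephb2 and Epha7, which read ephrins on neighbouring cells, changed by -2.20 and -2.46, and Epha3 by -2.30. Markers of neurons and Schwann cells had 6 of 15 lower over the same interval, and their part in these falls was not tested.

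Of 41 receptor tyrosine kinases, 5 rose and 25 fell, with relative median -0.61, and 3 rose without E14.5 replicate 3. Ror1, which binds Wnt5a, had 7.42, 7.47 and 7.21 at E16.5, against 9.93, 10.20 and 10.01 at E14.5 (change -2.69 ± 0.10, limma adjusted p = 6.59e-09). Ptk7, a partner of Wnt receptors, and Erbb2, of the EGF receptor family, changed by -1.86 and -1.80. Pdgfra, which marks mesenchymal progenitors, had 8.75, 8.87 and 8.65 at E16.5, against 10.67, 10.77 and 10.71 at E14.5 (change -1.96 ± 0.09, limma adjusted p = 1.87e-08). Insr and Igf1r, the receptors of insulin and insulin-like growth factor, changed in opposite directions. Insr had 8.84, 8.87 and 8.86 at E16.5, against 8.28, 8.23 and 8.19 at E14.5 (change 0.62 ± 0.07, limma adjusted p = 4.04e-05). Igf1r had 7.50, 7.41 and 7.50 at E16.5, against 9.01, 8.91 and 8.84 at E14.5 (change -1.45 ± 0.08, limma adjusted p = 8.60e-08). Each gene kept its direction on every array. Of 26 integrins, 1 rose and 14 fell (-0.47), and 5 rose without E16.5 replicate 1. Itga4 and Itga5, which bind fibronectin, changed by -1.70 and -1.25, and Itgb5 by -0.86. Without E16.5 replicate 2 the class had 114 rises and 235 falls.

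**Figure D4:**
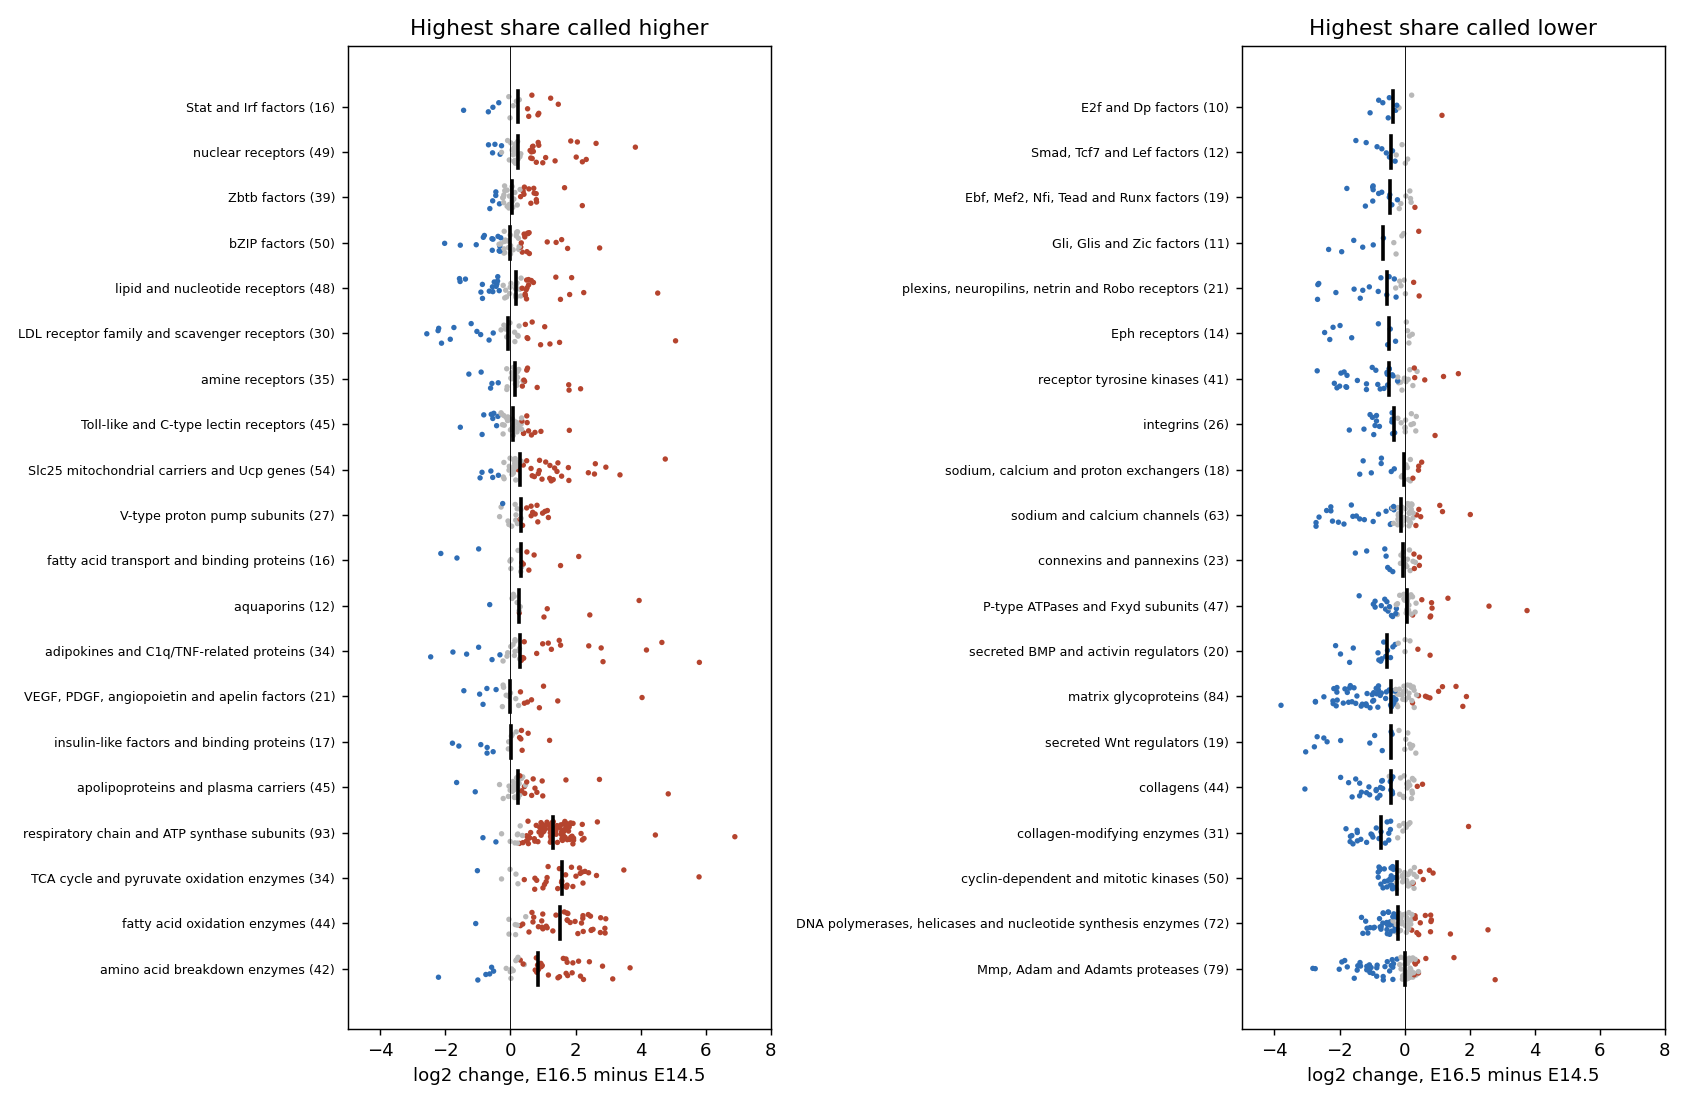
Log2 change, E16.5 minus E14.5, of each member (1 point a gene; red called higher, blue called lower, grey not called) in the 4 families per class with the highest share higher (left) and lower (right), with members measured in brackets and the median as a black bar. The 3 mitochondrial families of enzymes have deposited medians of 1.30, 1.57 and 1.53, and collagen-modifying enzymes have -0.72.

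The largest rises among transporters were those of Slc36a2, Ucp1 and Aqp7, and the largest falls those of Cacna1g, Asic1 and Cacng4. Ucp1, the proton channel of heat production, had 9.0, 9.37 and 9.29 at E16.5, against 4.23, 4.65 and 4.50 at E14.5. Its mean at E14.5 of 4.46 lay close to the low end, and at E16.5 it was 27.1 times higher on the linear scale (change 4.76 ± 0.12, limma adjusted p = 1.01e-09). Slc36a2, which moves small amino acids with protons and is a surface marker of brown adipocytes, had 10.78, 10.78 and 10.66 at E16.5, against 4.63, 4.62 and 4.87 at E14.5 (change 6.03 ± 0.12, limma adjusted p = 2.43e-10). Aqp7, the channel through which adipocytes release glycerol, had 11.50, 11.15 and 11.59 at E16.5, against 7.59, 7.34 and 7.44 at E14.5 (change 3.96 ± 0.12, limma adjusted p = 2.45e-09). Kcnk3, a background potassium channel, had 10.86, 10.78 and 10.97 at E16.5, against 7.04, 6.70 and 7.13 at E14.5 (change 3.91 ± 0.11, limma adjusted p = 2.03e-09). None of these had overlapping stages, as the choice of the largest rises required. Slc44a3, of the choline transporter family, rose by 3.51. Slc2a4, the glucose transporter that insulin brings to the surface, had 10.17, 10.42 and 10.21 at E16.5, against 8.29, 8.25 and 8.25 at E14.5 (change 2.0 ± 0.10, limma adjusted p = 3.46e-08).

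Of 54 Slc25 mitochondrial carriers and Ucp genes, 27 rose and 5 fell, with 17 rises of at least 2-fold, and the relative median was 0.15. Besides Ucp1, Slc25a42, the mitochondrial carrier of coenzyme A, changed by 2.61. Of 27 V-type proton pump subunits, 13 rose and 1 fell, with Atp6v0e (1.17), Atp6v1e1 (1.13) and Atp6v1d (1.06) leading. These build the pump that acidifies lysosomes. Of 16 fatty acid transport and binding proteins, 7 rose and 3 fell. Slc27a1, which takes fatty acids into the cell, changed by 2.10. Fabp4, which binds them inside adipocytes, was at 12.65, 12.50 and 12.64 at E16.5, against 11.11, 10.93 and 11.12 at E14.5 (change 1.54 ± 0.09, limma adjusted p = 1.64e-07). Slc27a2 (0.73) was at the low end at E14.5. Of 12 aquaporins, 5 rose and 1 fell, 3 of them with dim genes left out, and next to Aqp7 were Aqp11 (2.44) and Aqp1 (1.03), the water channel of small vessels.

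Of 63 sodium and calcium channels, 7 rose and 22 fell, of which 14 falls were at least 2-fold. Cacna1g, a low-voltage calcium channel, had 5.94, 6.20 and 5.77 at E16.5, against 8.53, 8.87 and 8.68 at E14.5 (change -2.72 ± 0.12, limma adjusted p = 2.10e-08). Piezo2, the channel that senses touch, and Cacna2d1, an accessory calcium channel subunit, changed by -2.27 and -2.22. Asic1, Cacng4 and Scn3b, subunits of acid-sensing, calcium and sodium channels, changed by -2.72, -2.63 and -2.27. Ryr1, the calcium release channel of the muscle reticulum and itself a muscle marker here, had 6.02, 5.75 and 6.40 at E16.5, against 8.59, 8.49 and 8.28 at E14.5 (change -2.40 ± 0.15, limma adjusted p = 2.18e-07). It fell with 18 of 19 muscle markers. Slc26a7, an anion exchanger, changed by -2.51, to the low end at E16.5.

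The other families with a high share of falls held smaller changes. Of 18 sodium, calcium and proton exchangers, 4 rose and 7 fell, with Slc8a1, the sodium-calcium exchanger of muscle, at -1.38, Slc9a7 at -1.27 and Slc9a9 at -0.71. The 4 rises there numbered 2 without any 1 of E14.5 replicates 1, 2 and 3 or E16.5 replicate 3. Of 23 connexins and pannexins, 4 rose and 7 fell, led by Gjd4 (-1.51) and Panx1 (-1.16), which join or open cells to small molecules, and Gja5 (-0.52). Connexin and pannexin rises numbered 0 without E14.5 replicate 1, 1 without E14.5 replicate 2 and 2 without E14.5 replicate 3 or E16.5 replicate 2. Of 47 P-type ATPases and Fxyd subunits, 9 rose and 14 fell. There Fxyd6 (-1.40), Atp2b4 (-0.96), which exports calcium, and Atp8b2 (-0.91), which flips phospholipids, fell. Falls outnumbered rises among transporters without E16.5 replicate 2 (177 rises and 203 falls), without E14.5 replicate 1 (147 and 148), after quantile normalization (179 and 200), after median centring (203 and 204), with dim genes left out (152 and 164) and, at 198 falls, with array weights.

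Among secreted factors, the largest rises after Adig were those of Apoc1 and Retn, and the largest falls those of Egfl6, Il17b and Col26a1. Retn (resistin), an adipocyte hormone of mice, had 9.98, 10.30 and 10.09 at E16.5, against 5.59, 5.33 and 5.49 at E14.5 (change 4.66 ± 0.10, limma adjusted p = 4.19e-10). Cfd (adipsin), a complement protease made by adipocytes, had 9.17, 9.04 and 9.05 at E16.5, against 4.81, 4.96 and 4.94 at E14.5 (change 4.18 ± 0.10, limma adjusted p = 5.11e-10). C3, its downstream complement partner, had 11.49, 11.35 and 11.49 at E16.5, against 7.49, 7.40 and 7.68 at E14.5 (change 3.92 ± 0.09, limma adjusted p = 5.11e-10). Apoc1, an apolipoprotein, and Angptl8, which restrains lipoprotein lipase, rose by 4.85 and 4.05. The stages did not overlap in any of the 5, as the choice of the largest rises required. Adig (adipogenin) headed the list at 5.81, but it is a membrane protein of adipocytes and is not secreted. Adipoq (adiponectin) had 9.02, 9.19 and 8.96 at E16.5, against 6.31, 5.97 and 6.36 at E14.5 (change 2.85 ± 0.11, limma adjusted p = 1.08e-08).

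Of 34 adipokines and C1q/TNF-related proteins, 16 rose and 6 fell, with relative median 0.14. Of 21 VEGF, PDGF, angiopoietin and apelin factors, 8 rose and 5 fell, with relative median -0.14. Angptl4, another inhibitor of lipoprotein lipase, changed by 1.45, and Vegfb, a growth factor abundant in oxidative tissues, by 1.02. Of 45 apolipoproteins and plasma carriers, 14 rose and 2 fell, 7 with dim genes left out, among them Orm1 (2.74) and Lcn2 (1.71), carriers of small molecules that inflammation induces. Of 17 insulin-like factors and binding proteins, 6 rose and 6 fell, with relative median -0.11. The rises numbered 2 after quantile normalization and also without any 1 of E14.5 replicate 1, E14.5 replicate 3 or E16.5 replicate 3, and 1 with dim genes left out. Igfbp7, which binds insulin-like growth factors, had 11.28, 11.13 and 11.19 at E16.5, against 10.09, 10.02 and 9.89 at E14.5 (change 1.20 ± 0.08, limma adjusted p = 6.61e-07). Insl6 (0.54) and Igfals (0.36) were at the low end at both stages, and each lost its call in at least 1 alternative.

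Egfl6 had 7.29, 7.18 and 6.75 at E16.5, against 10.90, 10.85 and 10.87 at E14.5, the largest fall of the class (change -3.80 ± 0.13, limma adjusted p = 4.35e-09). Dkk2, which blocks or tunes Wnt receptors, had 5.94, 6.08 and 5.70 at E16.5, against 8.87, 9.04 and 8.93 at E14.5 (change -3.04 ± 0.12, limma adjusted p = 8.85e-09). Sfrp2, which binds Wnt proteins outside the cell, had 8.19, 8.07 and 7.98 at E16.5, against 10.74, 10.82 and 10.74 at E14.5 (change -2.69 ± 0.08, limma adjusted p = 2.40e-09). These falls were seen on every array, which the choice of the largest falls required. Of 19 secreted Wnt regulators, 0 rose and 11 fell, 7 of them by at least 2-fold, with relative median -0.55, and Sfrp1 and Frzb changed by -2.48 and -2.77. Of 20 secreted BMP and activin regulators, 2 rose and 14 fell (-0.69). Nbl1, which binds BMPs, Fst (follistatin), which binds activin, and Bmper changed by -2.12, -1.97 and -1.69. Il17b, a cytokine, changed by -3.15.

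Of 84 matrix glycoproteins, 10 rose and 52 fell, 27 falls of them at least 2-fold, with relative median -0.56. Thbs1 (thrombospondin) had 8.44, 8.31 and 8.35 at E16.5, against 10.57, 10.62 and 10.43 at E14.5 (change -2.17 ± 0.08, limma adjusted p = 8.02e-09). Fras1, a protein of the epithelial basement membrane, changed by -2.74. Of 44 collagens, 2 rose and 25 fell (-0.55), and 5 rose without E16.5 replicate 1. Col5a2, a fibril collagen chain, had 7.66, 7.51 and 7.52 at E16.5, against 9.27, 9.39 and 9.20 at E14.5 (change -1.72 ± 0.09, limma adjusted p = 5.66e-08). Col26a1 changed by -3.06 and Col8a2 by -1.97, to the low end at E16.5. Over the same interval 13 of 16 mesenchymal progenitor markers and 6 of 14 cartilage and bone markers fell. Both lists hold matrix genes themselves, so these counts are not independent of the families above. Col1a1 and Col3a1 are in the first list and Col2a1, Col9a1 and Col11a1 in the second, and all of them fell. The part of progenitor, cartilage and bone cells in the falls was not tested. Dlk1, a surface protein of preadipocytes, changed by only -0.81 (limma adjusted p = 1.06e-04). The secreted factors had 108 rises and 226 falls without E16.5 replicate 2.

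Among enzymes, most members of the respiratory chain, TCA cycle, fatty acid oxidation and amino acid breakdown families rose, and most collagen-modifying enzymes fell. Pnpla2 (ATGL), which takes the first fatty acid off stored triglyceride, had 11.84, 11.99 and 11.81 at E16.5, against 7.60, 7.38 and 7.50 at E14.5 (change 4.39 ± 0.09, limma adjusted p = 2.78e-10). Pck1, which in fat makes the glycerol backbone for triglyceride, had 10.98, 10.99 and 11.05 at E16.5, against 5.03, 5.20 and 5.40 at E14.5 (change 5.80 ± 0.13, limma adjusted p = 4.20e-10). Cox8b, a second cytochrome c oxidase subunit typical of muscle and brown fat, had 11.64, 11.79 and 11.54 at E16.5, against 7.26, 6.96 and 7.38 at E14.5 (change 4.46 ± 0.13, limma adjusted p = 1.92e-09). All arrays of the stages were apart, as the choice of the largest rises required. Adhfe1, a mitochondrial dehydrogenase of hydroxy acids, rose by 4.71. The entry named Chkb, a choline kinase, stood at 4.70. It is uncertain, since the reference gene table also lists a readthrough gene that joins Chkb to its neighbour Cpt1b.

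Of 93 respiratory chain and ATP synthase subunits, 83 rose and 2 fell, 62 rises of them at least 2-fold, and the relative median was 1.17. Uqcrfs1, the Rieske iron-sulfur subunit of complex III, had 10.22, 10.50 and 10.35 at E16.5, against 7.69, 7.68 and 7.68 at E14.5 (change 2.67 ± 0.08, limma adjusted p = 2.98e-09). The members that fell were Cox6a2 (-0.85), the heart and muscle form of its subunit, and Atp5g1 (-0.45). Of 34 TCA cycle and pyruvate oxidation enzymes, 29 rose and 1 fell (1.44). That list was drawn wide and also counts Pck1, Pdk4 and Pcx. Pdk4, which shuts off pyruvate oxidation, had 9.28, 9.10 and 9.35 at E16.5, against 5.71, 5.72 and 5.84 at E14.5 (change 3.49 ± 0.09, limma adjusted p = 9.35e-10), and Pcx, pyruvate carboxylase, changed by 2.64. Of 44 fatty acid oxidation enzymes, 37 rose and 1 fell (1.39). Eci1, Acadl and Etfdh, which handle double bonds, long chains and the released electrons, changed by 2.77, 2.48 and 2.39. Of 42 amino acid breakdown enzymes, 27 rose and 6 fell (0.71). Aldh6a1 and Hibch, of valine breakdown, and Mut (current name Mmut), which feeds propionate into the TCA cycle, changed by 3.14, 2.83 and 2.09. Rises made up 22.0% of all genes, and these 4 families were picked for a high share of them.

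Promoter windows of 3 respiratory chain members that rose and of 2 subunits of the replicative helicase that fell are shown because each holds a motif long tied to such genes. The windows are the 250 bases before the RefSeq start (GRCm38.p6), in the gene's direction, with the motif in capitals, and both the motifs and the genes were chosen after their values were seen. In the first 3 the capitals mark GCGCA, any base and GCGC, the motif of NRF1, a factor of respiratory genes, at 79, 50 and 60 bases before the start. In the last 2 they mark TTTGGCGC or its reverse complement, a form of the E2F motif, at 149 bases before the start in Mcm5 and at 110 and 47 in Mcm6. Sdhd lies at chr9:50603850-50604099 (minus strand), Atp5k at chr5:108434400-108434649 (minus), Ndufa11 at chr17:56717512-56717761 (plus), Mcm5 at chr8:75109259-75109508 (plus) and Mcm6 at chr1:128359706-128359955 (minus).
Sdhd: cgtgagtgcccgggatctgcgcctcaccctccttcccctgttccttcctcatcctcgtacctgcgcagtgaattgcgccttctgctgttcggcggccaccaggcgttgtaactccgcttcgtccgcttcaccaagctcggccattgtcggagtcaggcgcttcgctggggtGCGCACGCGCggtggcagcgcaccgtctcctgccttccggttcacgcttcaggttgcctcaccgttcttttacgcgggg
Atp5k: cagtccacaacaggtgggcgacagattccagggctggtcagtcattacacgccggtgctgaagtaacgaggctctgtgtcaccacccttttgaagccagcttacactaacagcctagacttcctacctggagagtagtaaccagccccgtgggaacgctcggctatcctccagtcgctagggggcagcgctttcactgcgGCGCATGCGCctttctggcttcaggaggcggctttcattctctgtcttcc
Ndufa11: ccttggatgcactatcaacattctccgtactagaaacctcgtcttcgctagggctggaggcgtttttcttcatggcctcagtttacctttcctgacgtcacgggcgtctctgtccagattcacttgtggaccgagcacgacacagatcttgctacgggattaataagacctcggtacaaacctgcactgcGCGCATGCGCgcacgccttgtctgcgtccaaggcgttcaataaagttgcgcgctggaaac
Mcm5: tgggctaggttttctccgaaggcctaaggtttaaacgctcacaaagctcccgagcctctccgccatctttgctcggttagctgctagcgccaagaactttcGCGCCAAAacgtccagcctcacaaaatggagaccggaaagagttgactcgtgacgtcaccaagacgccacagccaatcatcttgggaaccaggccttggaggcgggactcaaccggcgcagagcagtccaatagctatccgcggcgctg
Mcm6: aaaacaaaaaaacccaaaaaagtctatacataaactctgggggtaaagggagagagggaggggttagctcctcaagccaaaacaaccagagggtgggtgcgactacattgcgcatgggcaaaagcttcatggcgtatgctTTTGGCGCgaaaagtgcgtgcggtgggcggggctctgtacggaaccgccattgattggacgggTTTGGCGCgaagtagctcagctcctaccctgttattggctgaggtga

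Sdhd, a subunit of complex II, rose by 1.92, Atp5k of the ATP synthase by 1.60 and Ndufa11 of complex I by 1.57. Mcm5 and Mcm6, subunits of the replicative helicase, changed by -0.75 and -0.72. On either strand the NRF1 motif was in 13 of 73 matched respiratory chain windows (17.8%), against 1144 of 27025 windows of all genes (4.23%), with mouse chromosome 18 left out. TTTCCCGC or TTTGGCGC was in 6 of 61 matched windows of the DNA synthesis family (9.84%), against 407 of all (1.51%). The NRF1 motif was also in 7 of those 61 (11.5%) and in 4 of 36 fatty acid oxidation windows (11.1%), but in only 1 of 30 windows of the TCA cycle and pyruvate oxidation family (3.33%), of which 29 of 34 members rose. TCAAGGTCA, the motif of estrogen-related receptors, was in 1 of the 73 respiratory windows and in 0.422% of all. The families and all genes were not matched for base composition, and a match is a description of letters, not of binding.

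Of 72 DNA polymerases, helicases and nucleotide synthesis enzymes, 13 rose and 33 fell, with relative median -0.35. Cad, which starts pyrimidine synthesis, had 8.47, 8.61 and 8.60 at E16.5, against 9.89, 9.87 and 9.76 at E14.5 (change -1.28 ± 0.09, limma adjusted p = 4.55e-07). Pole, a replicative polymerase, and Mcm3, of the helicase, changed by -1.19 and -1.06. Of 50 cyclin-dependent and mitotic kinases, 5 rose and 23 fell, none of the falls as large as 2-fold, with Nek6 (-0.81), Plk3 (-0.76) and Cdk14 (-0.73) leading. These changes were small beside those of the matrix enzymes. Of 31 collagen-modifying enzymes, 1 rose and 22 fell (-0.86). Plod2, which hydroxylates collagen lysines for crosslinks, had 8.35, 8.33 and 8.05 at E16.5, against 10.08, 10.02 and 10.03 at E14.5 (change -1.80 ± 0.09, limma adjusted p = 5.58e-08), and the collagen prolyl hydroxylases P3h2 and P3h3 changed by -1.66 and -1.62. Of 79 Mmp, Adam and Adamts proteases, 9 rose and 32 fell, and the rises numbered 5 without E14.5 replicate 2 or 3 and 14 without E16.5 replicate 1. Mmp2, which digests basement membrane collagen, had 10.25, 10.14 and 10.10 at E16.5, against 11.96, 12.04 and 12.00 at E14.5 (change -1.84 ± 0.08, limma adjusted p = 2.33e-08). Adamts16, Adamts17 and Mmp16, proteases of the matrix, changed by -2.75, -2.82 and -1.93.

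The largest falls among single enzymes were those of B4galnt4, at the low end at E16.5, with 3.88, 4.45 and 4.25 at E16.5, against 7.24, 7.42 and 7.67 at E14.5 (change -3.25 ± 0.15, limma adjusted p = 3.04e-08), and of B3gnt5, which builds glycolipid chains, with 5.47, 5.64 and 5.06 at E16.5, against 8.32, 8.19 and 8.26 at E14.5 (change -2.87 ± 0.13, limma adjusted p = 2.83e-08). Elovl4, which makes very long fatty acids, and Hsd3b6, a steroid dehydrogenase, changed by -2.85 and -2.84, Hsd3b6 to the low end at E16.5. Trim55, a ubiquitin ligase of muscle sarcomeres, changed by -2.86 with the muscle markers. Other enzymes known for their part in fat moved upward. Lpl, lipoprotein lipase, had 11.70, 11.71 and 11.88 at E16.5, against 10.40, 10.25 and 10.33 at E14.5 (change 1.44 ± 0.08, limma adjusted p = 1.69e-07). Dio2, which activates thyroid hormone in brown fat, had 7.02, 7.75 and 7.59 at E16.5, against 4.06, 3.85 and 3.94 at E14.5 (change 3.51 ± 0.17, limma adjusted p = 3.35e-08), from the low end at E14.5 and with its lowest E16.5 value on replicate 1. Gys1, the glycogen synthase of most tissues, had 11.01, 11.09 and 11.09 at E16.5, against 9.91, 9.81 and 9.91 at E14.5 (change 1.19 ± 0.07, limma adjusted p = 2.75e-07), and Gys2, the liver form, was at the low end at both stages. Without E16.5 replicate 2 the class had 584 rises and 489 falls.

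**Figure D5:**
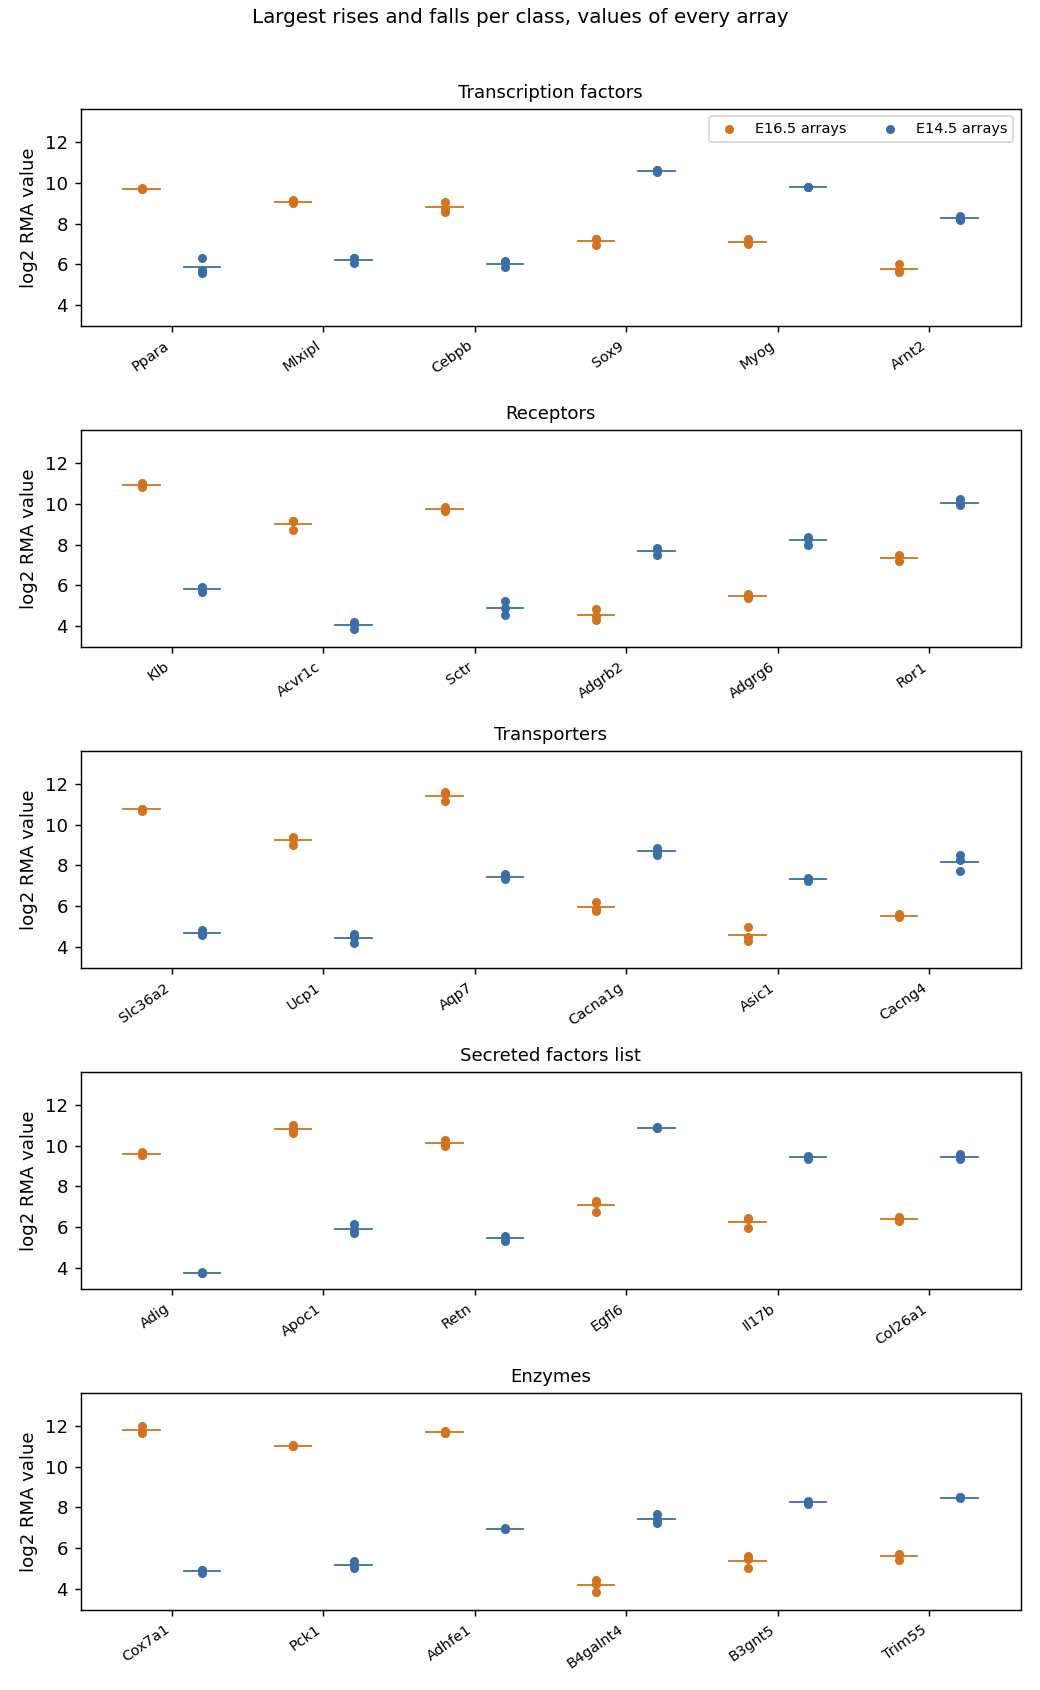
Log2 RMA values on each E16.5 array (orange) and each E14.5 array (blue) of the 3 largest rises and 3 largest falls in each class, with the stage mean as a line. The stages do not overlap in any of the genes shown, as the choice of genes required, and Cox7a1 lies between 11.65 and 11.98 at E16.5 and between 4.79 and 4.94 at E14.5.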

How the data were processed

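The deposited values are log2 intensities. Per the submitters' processing notes, the tools were Partek 7.0 and RMA, a method that removes background, aligns the arrays' distributions and combines probes, although array medians in the deposited table still differed. For the annotation, the genome build and the step to 1 value per symbol, "not given in the sources used here" applies. The values ran from 2.34 to 13.1.

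limma 3.58.1 in R 4.3.3 (lmFit and eBayes) was fitted to these values, with 3 stages as groups, on all 9 arrays and no other covariate. The contrast was E16.5 minus E14.5, two-sided, with Benjamini-Hochberg adjustment over 30915 genes and a threshold of 0.05. All adjusted p-values come from it, and the script was tested on simulated data. The number of arrays limits the precision.

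Genes were assigned to families by symbol, set against RefSeq names of GRCm38.p6 (26677 current, 998 older, 3240 without a match, 13 turned into dates). The members and lists were chosen with earlier results of these data known. Named genes are the 8 largest rises and falls, the 6 largest per class, up to 3 members by smallest p in the 4 families per class and direction with the highest share called (families of 5 members or more), and a panel of genes known from brown fat, glycogen, muscle, progenitors and insulin signalling. The largest changes had to keep their call without any 1 array and to have stages that do not overlap. Gene models, small RNAs and olfactory receptors were left out. Some genes that the rule picks are not reported here. Cox6a2, Atp5g1, Sdhd, Atp5k, Ndufa11, Mcm5 and Mcm6 were named after their values were seen.

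Alternatives were quantile normalization, median centring, the 6 arrays alone, dim genes left out, array weights, a replicate block and each array left out.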

Additional observations from a re-analysis of the deposited data

How the results depend on the processing

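Of 2154 values of the 180 named genes under the alternatives, 2147 stayed on the same side of the threshold, 7 missed it and 0 turned round. The choice of genes set part of this agreement. The largest changes had to keep their call without any 1 array, so those fits could not fail for them. Family members were picked by smallest p. The 7 were those of Ebf2 and Igfals, and of Insl6 without E14.5 replicate 1 (0.50, limma adjusted p = 0.0576). For Igfals the change was 0.20 after quantile normalization (limma adjusted p = 0.319). The count of secreted factors that rose was 63 with dim genes left out, against 117 with all genes, and fewer genes are tested there. Every other class count stayed within 1.5 times under every alternative run. Of 80 family counts described, 19 moved by over 1.5 times without some 1 array, 9 of them counts of 2 or fewer. Leaving out 1 array at a time gave 5060 to 8374 rises and 4670 to 6720 falls among all genes, 165 to 244 and 253 to 361 among transcription factors, 96 to 160 and 191 to 235 among receptors, 147 to 228 and 143 to 203 among transporters, 80 to 160 and 195 to 226 among secreted factors, and 520 to 637 and 375 to 489 among enzymes. The most falls came without E16.5 replicate 2, whose array weight was 0.0847 against 0.820 to 1.71 on the others, and in that fit 48.5% of called genes were higher. That share was 55.8% as deposited, 47.7% after quantile normalization and 52.2% after median centring. The replicate number as a block gave 6869 rises and 5283 falls, and the numbers do not pair the samples: deviations of same-numbered arrays correlated at 0.1003, -0.00821 and -0.0705. Of 1497 olfactory and vomeronasal receptor genes, 242 rose and 5 fell, against 193 and 14 without E16.5 replicate 2. Dim genes limit what can be read, since 12158 lay at the low end at both stages.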

Other observations

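The largest falls of the whole table belonged to small RNA genes that lie in a row, and they were singled out after their values were seen. The imprinted stretch of mouse chromosome 12 from Dlk1 to Dio3 carries, on the maternal chromosome, the noncoding RNAs Meg3, Rian and Mirg, inside which clusters of microRNAs and small nucleolar RNAs are encoded. Of 103 genes that the RefSeq table lists there, 76 had an entry. Of these 73 fell, 66 of them at least 2-fold, 0 rose and 3 did not pass limma's threshold, with a median change of -2.43. Among all genes 17.4% fell. Of the 51 microRNA entries 50 fell, as did all 15 small nucleolar RNA entries. Of 508 microRNA entries elsewhere in the genome, 84 fell and 48 rose. Mir377 had 4.83, 4.32 and 3.95 at E16.5, against 8.75, 8.84 and 8.38 at E14.5 (change -4.29 ± 0.31, limma adjusted p = 8.94e-07). Rian had 9.73, 9.72 and 9.48 at E16.5, against 11.41, 11.21 and 11.34 at E14.5 (change -1.68 ± 0.10, limma adjusted p = 2.09e-07). Mir377 thus lay at the low end at E16.5, as did 26 of the 73 genes that fell, so the size and rank of such falls are limited by the low end. Meg3 and Mirg changed by -2.16 and -2.24. Every E16.5 value of these genes was below every E14.5 value. Of the protein-coding genes, Rtl1 changed by -1.69 and Dlk1 by -0.81, while Dio3 had a change of -0.10 and did not pass (limma adjusted p = 0.636). Without E16.5 replicate 2 the falls numbered 74, with Dio3 among them (-0.34, limma adjusted p = 0.00139). Many of the entries lie within shared host transcripts and so are not independent. The probes may read precursor or host RNA, so levels of mature microRNAs cannot be told from these values.

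The mature forms of the 3 microRNA genes with the largest falls, and of a pair that shares a seed, are given from RefSeq (GRCm38.p6, plus strand of chromosome 12), with the seed, bases 2 to 8, in capitals. The pair is Mir379 (change -2.83) and Mir411 (-2.24), whose 3p forms have the same seed, while the seeds of their 5p forms differ. Mir544 and Mir300 changed by -4.26 and -4.06, and Mir544, Mir379 and Mir411 were at the low end at E16.5.
miR-377-3p: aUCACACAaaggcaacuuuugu
miR-544-3p: aUUCUGCAuuuuuagcaagcuc
miR-300-3p: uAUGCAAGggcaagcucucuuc
miR-379-3p: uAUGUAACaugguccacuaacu
miR-411-3p: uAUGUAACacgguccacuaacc

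Mitochondrial and cytosolic aminoacyl-tRNA synthetases, which load tRNAs for translation in each compartment, differed in their counts, a split seen after their values. All 17 members of the mitochondrial set (symbols ending in 2) rose, with a median change of 1.11 and a range of 0.32 to 1.93. Of the other 19, 2 rose (Farsb and Gars), 8 fell and 9 did not pass, with a median of -0.18. Gars (0.48) and Kars (-0.32) each also encode the mitochondrial enzyme, and they changed in opposite directions. Iars2 had 10.44, 10.81 and 10.56 at E16.5, against 8.98, 8.93 and 8.94 at E14.5 (change 1.65 ± 0.10, limma adjusted p = 1.70e-07). Its cytosolic counterpart Iars had 9.93, 10.12 and 9.90 at E16.5, against 10.61, 10.60 and 10.59 at E14.5 (change -0.62 ± 0.08, limma adjusted p = 1.03e-04).

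Close relatives also moved in opposite directions in other families, and these pairs were picked after their values were seen. Lgr5, a sister of Lgr6, had 4.35, 4.13 and 3.94 at E16.5, against 6.94, 6.74 and 6.54 at E14.5 (change -2.60 ± 0.13, limma adjusted p = 5.02e-08), to the low end at E16.5, whereas Lgr6 rose by 3.58. Slc2a1, the widespread glucose transporter, had 9.41, 9.79 and 9.56 at E16.5, against 10.46, 10.47 and 10.50 at E14.5 (change -0.89 ± 0.10, limma adjusted p = 2.34e-05), whereas Slc2a4 rose by 2.0. Tgfbr1 had 7.78, 7.94 and 7.65 at E16.5, against 9.38, 9.29 and 9.31 at E14.5 (change -1.54 ± 0.09, limma adjusted p = 1.92e-07), whereas Acvr1c, of the same receptor type, rose by 4.93.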
